A study of Mus musculus with 6 samples.

Results

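The genes described here are 44 components of TGF-beta and BMP signalling, taken by symbol from a list of ligands, receptors, extracellular antagonists, Smads, latent TGF-beta binding proteins and target genes. All 44 were measured, each by the 1 probe set that carries only its symbol in the platform annotation, among 30063 genes tested. By their textbook roles 20 were placed in a TGF-beta and activin arm and 18 in a BMP arm, and 6 serve both.

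TGF-beta and activin ligands bind pairs of type I and type II serine/threonine kinase receptors that phosphorylate Smad2 and Smad3, while BMP ligands act mainly through Smad1, Smad5 and Smad9. Either set of Smads joins Smad4 and enters the nucleus. TGF-beta is secreted in a latent complex that is tethered to matrix or to the cell surface and must be released, whereas activins and BMPs are held in check by secreted antagonists such as follistatin, noggin and gremlin. In the glomerulus, TGF-beta is known for its part in podocyte loss and matrix build-up.

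The cells were conditionally immortalized mouse podocyte lines, which are able to divide under a permissive condition and to differentiate when it is withdrawn. The groups were 3 arrays of podocytes with NCK1/2 knockout and 3 arrays of Wildtype podocytes, all taken after 10 days of differentiation on collagen of type I. Nck1 and Nck2 are adaptor proteins that couple phosphorylated receptors to actin assembly. Each genotype is a line of its own, replicates are replicates of a line, and neither the way the genes were removed nor whether a line was 1 clone is given in the sources used here.

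Values are log2 probe set intensities. Correlations across genes were 0.993 to 0.998 between arrays of a group and 0.978 to 0.985 between groups. Nck1 had 8.13, 8.17 and 8.06 in knockout against 8.54, 8.74 and 8.62 in wildtype and fell (log2 fold change -0.51, limma adjusted p = 0.00384), and Nck2 differed by -0.24 without passing (adjusted p = 0.0928) with both means within the background range. The position of these probe sets relative to the deleted parts is not known. The lines also differed in sex chromosome transcripts, with Xist at a mean of 6.01 in knockout against 12.19 in wildtype and the Y-linked Uty at 9.90 against 5.21, so the knockout and other differences between the lines cannot be told apart. Of 8 measured podocyte markers none passed in limma (adjusted p from 0.383 to 0.946, and 0 at an unadjusted p under 0.05), and 4 of the 8 lay within the background range in both lines, among them the nephrin gene Nphs1 and the transcription factor gene Wt1. The other 4 lay above it in both lines. Their means in knockout and wildtype were 8.75 and 8.73 for Synpo and 8.40 and 8.31 for Podxl. Those of Cd2ap were 11.23 and 11.15, and those of Nes 10.39 and 10.21. Tubule markers were bright too, with wildtype means of 12.92 for Aqp1, 11.76 for Lrp2 and 11.60 for Cdh16. In knockout these were 9.42, 11.39 and 10.10. Of the 8 tubule markers measured, 4 lay within the background range in both lines. Podocyte is therefore the name given by the sample labels, and these markers do not settle the cell type. The background range is defined here as means at or below 7.78, the highest of 23 background probe sets on the array. Levels inside that range may still be real signal. Where RNA is taken from a whole culture, fewer cells of a type and less RNA per cell cannot be told apart.

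In knockout podocytes 12 of the 44 signalling genes rose, 6 fell and the other 26 missed the threshold (limma, two-sided, Benjamini-Hochberg adjusted p under 0.05 over all genes). That is 40.9% of the signalling genes, beside 12.1% of all genes tested (5.12% higher and 7.0% lower in knockout, 1540 and 2103 genes, a split that turned to 2399 higher and 1779 lower with chromosome medians subtracted) and 23.9% of the 11203 genes whose mean over 6 arrays lay above the background range. The list was chosen with earlier results of these data known, so the higher share is described and was not tested. The counts by role and by list below stand beside the same shares of all genes, and were not tested either. Of the 12 that rose, 7 belong to the TGF-beta and activin arm and 5 to the BMP arm, and each arm had 3 that fell. The 6 shared genes did not pass in limma, with 2 of them at an unadjusted p under 0.05. The 3 knockout values did not overlap the 3 wildtype values for 30 of the 44 genes, beside 27.5% of all genes. Among genes whose mean lay above the background range, this held for 29 of 36 signalling genes and 5642 of 11203 genes. The median log2 fold change was 0.05 over the 44 genes and 0.01 over all genes, and the median size regardless of direction was 0.18 and 0.08. Above the background range that size was 0.27 over the 36 signalling genes and 0.15 over the 11203 genes. The 11 genes that passed whose log2 fold change was 0.5 or more in size, which 5.57% of all genes did, are given by array below, 7 that rose and 4 that fell.

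**Figure D1:**
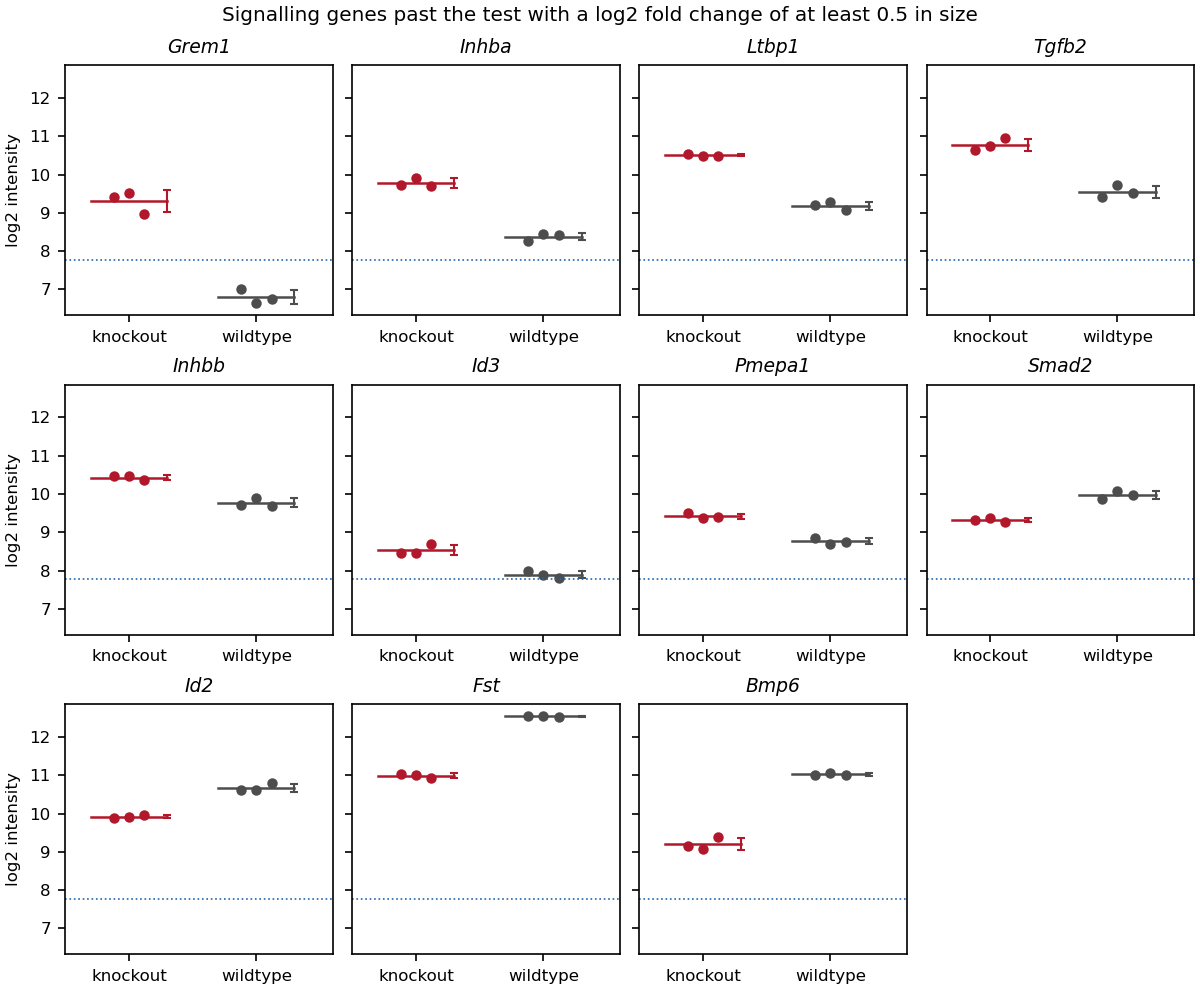
Log2 intensity (y axis) of the 11 signalling genes that passed with a log2 fold change of 0.5 or more in size, in 3 knockout arrays (red) and 3 wildtype arrays (grey); points are arrays, bars are group means with the SD at their right end, and the dotted line is the highest background probe set mean, 7.78. The 3 knockout values lie wholly above or wholly below the 3 wildtype values in every panel, and the wildtype values of Grem1 lie below the dotted line.

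The promoters of 4 genes are shown first, because Tgfb2, Ltbp1, Smad6 and Id2 stand for the ligands, the latent complex, the feedback inhibitors and the targets, and because their windows hold elements known from Smad or basal control; they were chosen after the matches had been seen, and the Id3 window, also looked at, was not printed because it held none of the elements marked here. The sequences are from RefSeq (GRCm38.p6), 250 bases before to 50 after the start site, read 5′ to 3′ on the gene's own strand. Capitals mark CAGACA (the core of the CAGA box bound by Smad3 and Smad4), GTCTAGAC (the palindromic Smad-binding element), GGCGCC (a GC-rich Smad element), CACGTG (an E-box) and TATAAA (the core of a TATA box), each searched on both strands, so that CAGACA on the other strand reads TGTCTG. The marked elements did not overlap each other. The Tgfb2 window is chr1:186705940-186706239 on the minus strand, that of Ltbp1 chr17:75178531-75178830 on the plus strand (of 2 starts in the table, the one with more matches), that of Smad6 chr9:64022010-64022309 on the minus strand and that of Id2 chr12:25096043-25096342 on the minus strand.
Tgfb2: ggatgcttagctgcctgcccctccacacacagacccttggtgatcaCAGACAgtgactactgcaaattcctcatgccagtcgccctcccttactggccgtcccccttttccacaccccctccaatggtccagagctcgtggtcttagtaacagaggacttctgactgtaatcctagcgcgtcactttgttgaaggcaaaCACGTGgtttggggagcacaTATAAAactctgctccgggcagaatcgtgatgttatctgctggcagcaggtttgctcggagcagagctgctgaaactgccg
Ltbp1: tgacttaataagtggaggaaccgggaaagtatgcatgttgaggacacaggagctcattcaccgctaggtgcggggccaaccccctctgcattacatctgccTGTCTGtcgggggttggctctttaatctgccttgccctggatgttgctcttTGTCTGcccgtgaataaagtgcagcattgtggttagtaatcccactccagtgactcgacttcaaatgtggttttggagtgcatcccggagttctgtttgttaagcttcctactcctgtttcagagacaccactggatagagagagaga
Smad6: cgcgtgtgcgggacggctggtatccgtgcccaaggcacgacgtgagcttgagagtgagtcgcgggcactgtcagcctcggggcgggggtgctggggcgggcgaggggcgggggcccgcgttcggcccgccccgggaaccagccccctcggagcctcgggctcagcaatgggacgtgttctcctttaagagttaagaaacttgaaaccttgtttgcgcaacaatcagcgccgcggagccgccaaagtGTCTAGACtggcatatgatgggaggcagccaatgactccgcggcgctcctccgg
Id2: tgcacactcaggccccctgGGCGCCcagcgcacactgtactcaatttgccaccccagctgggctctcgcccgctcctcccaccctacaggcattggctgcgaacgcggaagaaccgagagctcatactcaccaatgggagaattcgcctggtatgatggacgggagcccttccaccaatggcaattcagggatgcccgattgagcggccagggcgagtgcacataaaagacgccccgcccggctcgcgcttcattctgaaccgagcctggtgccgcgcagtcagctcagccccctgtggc

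Among all 32851 promoter windows of the reference table, GTCTAGAC occurs in 0.213%, CAGACA in 21.0%, GGCGCC in 11.9%, CACGTG in 7.15%, TATAAA in 13.6% and the cyclic AMP response element TGACGTCA, also searched, in 1.79%. In all, 10 motifs were searched on both strands; the other 4 were TGANTCA (the AP-1 element, in 7.81% of windows), GGAATG (the TEAD element, in 14.7%), 1 form of the CArG box (in 0.0639%) and the GC-rich GGCGCG (in 19.2%), and none of these 4 is in the windows printed above. These percentages are per window, while a signalling gene is counted if any of its windows holds a match, so the units differ. Of the 44 signalling genes 30 had a window. CAGACA was found for 8 of them (Bmpr1b, Chrd, Fstl3, Ltbp1, Ltbp3, Tgfb2, Tgfbr1 and Tgif1), GGCGCC for 10, TATAAA for 4 (Bmpr1b, Fstl3, Inhba and Tgfb2) and CACGTG for 3 (Bmp4, Bmp6 and Tgfb2). GTCTAGAC was found for Smad6 alone, beginning 4 bases before its start site and running across it, and TGACGTCA for Ltbp1 alone, in the window of its other start. TGANTCA was found for Ltbp3 alone, GGAATG for Id3 and Id4, that form of the CArG box for 0 and GGCGCG for 13. These matches describe letters in a window and not bound sites.

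Of the 5 ligand genes of the TGF-beta and activin arm 4 rose in knockout, and Tgfb1 did not pass. Inhba, which encodes the subunit of activin A, had 9.73, 9.92 and 9.69 in knockout arrays against 8.27, 8.44 and 8.41 in wildtype arrays. The groups are more than 1 log2 unit apart and do not overlap, a 2.66-fold rise (log2 fold change 1.41, SE 0.08, limma adjusted p = 0.00016). Tgfb2, one of the 3 TGF-beta isoforms, had 10.64, 10.75 and 10.95 in knockout against 9.41, 9.71 and 9.52 in wildtype. Every knockout array was again above every wildtype array, and Tgfb2 rose 2.34-fold (log2 fold change 1.23, SE 0.11, limma adjusted p = 0.000882). Inhbb, which encodes the subunit of activin B, had 10.47, 10.47 and 10.35 in knockout against 9.72, 9.91 and 9.69 in wildtype. It rose 1.58-fold without overlap (log2 fold change 0.66, SE 0.07, limma adjusted p = 0.00234).

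Tgfb3, the remaining isoform that passed, averaged 8.04 ± 0.02 in knockout and 7.61 ± 0.12 in wildtype (SD, n = 3 each), with wildtype inside the background range. Its log2 fold change was 0.42 (SE 0.07, limma adjusted p = 0.0106), and without knockout replicate 2 it missed the threshold (adjusted p = 0.0523, where all alternatives ran from 0.00296 to 0.0523). Tgfb1 had 8.80, 8.83 and 9.35 in knockout against 8.66, 8.73 and 8.66 in wildtype. Knockout replicate 3 stands well above the other two knockout arrays, and the difference of 0.31 (95% confidence interval -0.04 to 0.67, limma adjusted p = 0.282) was 0.13 without that array.

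Of the 4 BMP ligands, Bmp6 fell and Bmp2, Bmp4 and Bmp7 did not pass. Bmp6, known for its part in iron balance as well as in bone, had 9.16, 9.06 and 9.38 in knockout against 11.01, 11.07 and 11.00 in wildtype. The groups are far apart, with knockout at 0.282 times the wildtype level (log2 fold change -1.83, SE 0.09, limma adjusted p = 7.68e-05). Bmp4 averaged 9.79 ± 0.13 in knockout and 9.88 ± 0.06 in wildtype (SD, n = 3 each), a difference of -0.09 with a 95% confidence interval of -0.27 to 0.10. Bmp7, described as protective in the kidney, differed by -0.03 (-0.15 to 0.10) and Bmp2 by 0.03 (-0.08 to 0.13), and both means of each lay within the background range. The median log2 fold change of the ligands was 0.66 in the TGF-beta and activin arm and -0.06 in the BMP arm, beside 0.01 over all genes. The difference between the arms was not tested, since members of a list are not replicates.

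Of the 6 antagonists outside the cell 1 rose and 2 fell. Fst, encoding follistatin, which binds activins and blocks their receptor sites, had 11.04, 11.00 and 10.92 in knockout against 12.55, 12.55 and 12.51 in wildtype. The 3 arrays of each group lie close together and the groups far apart, with knockout at 0.342 times the wildtype level (log2 fold change -1.55, SE 0.05, limma adjusted p = 1.77e-05). Its relative Fstl3, also an activin antagonist, differed by -0.03 (95% confidence interval -0.14 to 0.09), with both means within the background range. Grem1, encoding gremlin, which captures BMP2, BMP4 and BMP7, had 9.42, 9.51 and 8.98 in knockout against 7.001, 6.65 and 6.75 in wildtype. Knockout replicate 3 is the lowest of its group and still about 2 log2 units above each wildtype array. Grem1 had the largest rise of the 44 genes, 5.67-fold (log2 fold change 2.50, SE 0.16, limma adjusted p = 0.000234), from a wildtype level within the background range, so the size of the fold depends on a level not separated from background.

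Nog, encoding the BMP antagonist noggin, averaged 7.42 ± 0.12 in knockout and 7.79 ± 0.01 in wildtype (SD, n = 3 each) and fell (log2 fold change -0.37, SE 0.07, limma adjusted p = 0.0171), with the knockout mean within the background range. Without any 1 of the 3 wildtype arrays the call was lost, at adjusted p = 0.0575 without replicate 1, 0.0584 without replicate 2 and 0.0798 without replicate 3, where all alternatives ran from 0.00819 to 0.0798. Chrd, encoding chordin, differed by 0.06 (95% confidence interval -0.13 to 0.26) within the background range. Bmp1, which despite its name encodes a protease that cleaves procollagens and chordin, averaged 10.20 ± 0.09 in knockout and 10.47 ± 0.09 in wildtype without overlap and missed the threshold (log2 fold change -0.27, limma adjusted p = 0.0536). It passed without knockout replicate 3 (adjusted p = 0.0486) and under 4 other alternatives, over a range of 0.00845 to 0.178. Fstl1, a secreted glycoprotein that binds ligands of both arms, differed by -0.09 (-0.20 to 0.01).

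**Figure D2:**
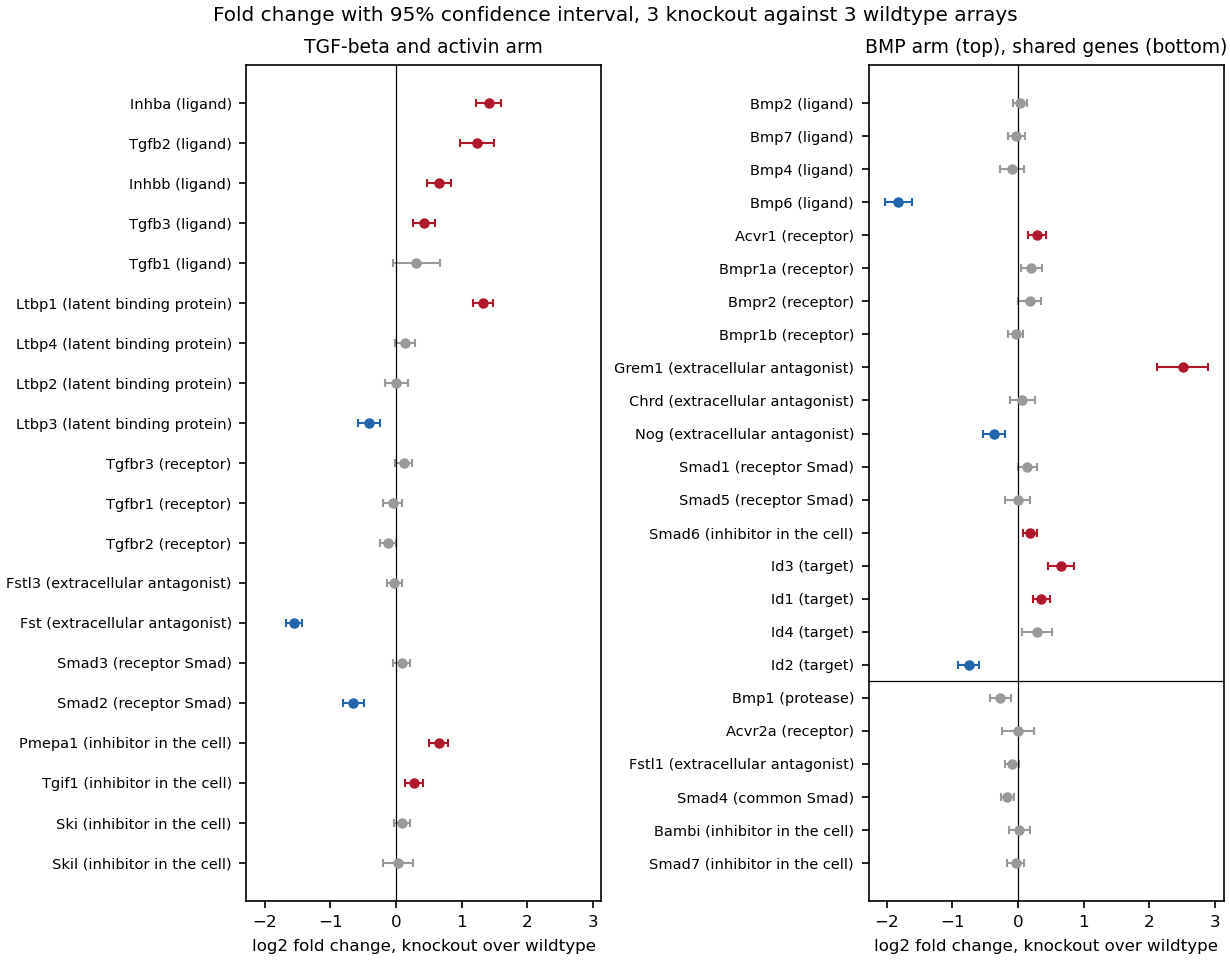
Log2 fold change, knockout over wildtype (x axis), of all 44 signalling genes with limma 95% confidence intervals, ordered by role within the TGF-beta and activin arm (left) and within the BMP arm and the shared genes (right, above and below the line); red rose, blue fell and grey did not pass. Inhba, Tgfb2 and Ltbp1 lie to the right and Fst to the left in the first panel, and Grem1 and Bmp6 are the extremes of the second.

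Of the 4 genes of latent TGF-beta binding proteins, Ltbp1 rose, Ltbp3 fell and Ltbp2 and Ltbp4 did not pass. Ltbp1, which tethers the latent complex to matrix fibres, had 10.54, 10.49 and 10.49 in knockout against 9.19, 9.27 and 9.07 in wildtype, a 2.51-fold rise without overlap (log2 fold change 1.33, SE 0.06, limma adjusted p = 7.83e-05). Ltbp3, another carrier of latent TGF-beta, averaged 10.24 ± 0.09 in knockout and 10.66 ± 0.08 in wildtype (SD, n = 3 each) and fell (log2 fold change -0.41, SE 0.07, limma adjusted p = 0.0106). Ltbp4 differed by 0.14 (95% confidence interval -0.02 to 0.29), with the wildtype mean within the background range. Ltbp2, which unlike its relatives does not carry latent TGF-beta, differed by 0.01 (-0.17 to 0.18) within that range.

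Around these, 4 of 11 measured genes of a list on latent TGF-beta storage and release passed, 1 rising and 3 falling. That is 36.4% of a list chosen with earlier results known, beside 12.1% of all genes and 23.9% of genes above the background range. Lrrc32 encodes GARP, which anchors latent TGF-beta on the cell surface, and had 10.25, 10.39 and 10.41 in knockout against 7.06, 7.02 and 6.59 in wildtype (log2 fold change 3.46, SE 0.13, limma adjusted p = 3.42e-05). Itgb6, encoding the epithelial partner of integrin alpha-v that releases latent TGF-beta, had 7.30, 7.38 and 7.30 in knockout against 10.33, 10.51 and 10.42 in wildtype (log2 fold change -3.09, SE 0.06, limma adjusted p = 3.05e-06). Both differences exceed 3 log2 units, in opposite directions, and the lower group of each lay within the background range. Itgb8, the other releasing partner, fell by 0.80 on the log2 scale (SE 0.13, limma adjusted p = 0.00978), with adjusted p = 0.0511 without knockout replicate 1 and 0.0509 without wildtype replicate 3, over a range of 0.00209 to 0.0511. The knockout mean of Itgb8, 7.29, lay within the background range. Tll1, a tolloid protease gene, fell by 0.25 within the background range (adjusted p = 0.035), a call lost without any 1 array (adjusted p from 0.0542 to 0.143). The shared integrin chain gene Itgav (0.03), the TGF-beta activator Thbs1 (0.08) and the surface anchor Nrros (0.04) did not pass.

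**Figure D3:**
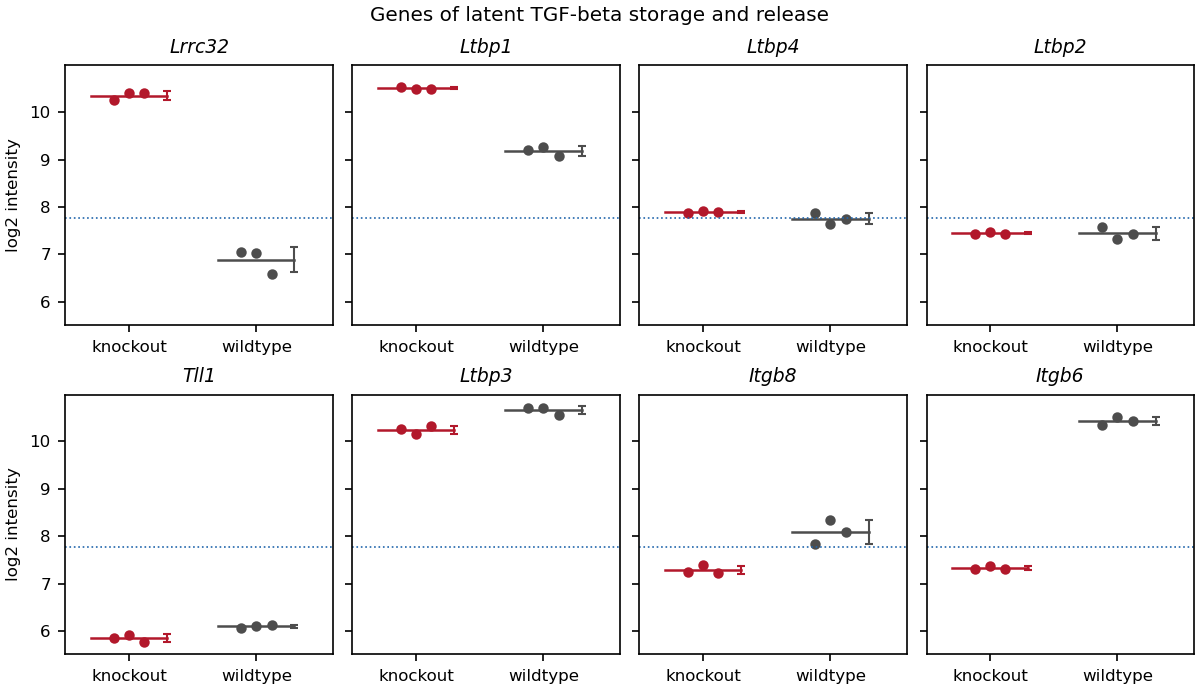
Log2 intensity (y axis) of the 4 latent TGF-beta binding protein genes and of the 4 other storage and release genes that passed, in 3 knockout arrays (red) and 3 wildtype arrays (grey), ordered by fold change; bars are means with the SD at their right end, and the dotted line is the highest background probe set mean, 7.78. Lrrc32 and Ltbp1 are higher in all 3 knockout arrays, and Itgb6 lies below the dotted line in knockout and near 10.4 in wildtype.

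Of the 8 receptor genes 1 rose, and 7 did not pass. That is 12.5%, beside 12.1% of all genes and 23.9% of genes above the background range. The TGF-beta receptors Tgfbr1 and Tgfbr2, the type I and type II kinases, differed by -0.05 (95% confidence interval -0.20 to 0.10) and -0.12 (-0.25 to 0.01), and the co-receptor Tgfbr3, betaglycan, by 0.12 (-0.01 to 0.25). Acvr2a, a type II receptor of activins and some BMPs, differed by -0.0005 (-0.25 to 0.25). Of the BMP receptors, the type I gene Acvr1 averaged 8.71 ± 0.02 in knockout and 8.42 ± 0.09 in wildtype and rose (log2 fold change 0.29, SE 0.06, limma adjusted p = 0.0205). That call was lost without any 1 knockout replicate and without wildtype replicate 1 or 3 (adjusted p from 0.0592 to 0.088). Bmpr1a differed by 0.20 (0.04 to 0.36, adjusted p = 0.119) and Bmpr2 by 0.18 (0.001 to 0.35, adjusted p = 0.212), without overlap and without passing over all genes. The groups nearly touched, with lowest knockout and highest wildtype values of 10.417 and 10.402 for Bmpr1a and 11.381 and 11.38 for Bmpr2. Bmpr1b, the remaining type I receptor gene, lay within the background range at 5.71 in knockout and 5.74 in wildtype.

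Of the 4 receptor Smads among the 44 genes, Smad2 fell and Smad1, Smad3 and Smad5 did not pass; Smad9, outside the 44, is given with the other regulators. Smad2, which with Smad3 is phosphorylated by TGF-beta and activin receptors, had 9.32, 9.39 and 9.28 in knockout against 9.86, 10.08 and 9.99 in wildtype. It fell to 0.639 times the wildtype level without overlap (log2 fold change -0.65, SE 0.07, limma adjusted p = 0.0019). Smad3 differed by 0.09 (95% confidence interval -0.04 to 0.22). Smad2, Smad4, Smad7 and Bambi lie on chromosome 18, where the median log2 fold change of 273 brighter protein-coding genes was -0.13, and after subtraction of each chromosome's median, an alternative chosen after seeing the data, Smad2 still fell, by 0.52 (adjusted p = 0.00457, where all alternatives ran from 0.000318 to 0.0168). Smad4, the common partner, averaged 9.98 ± 0.01 in knockout and 10.14 ± 0.03 in wildtype without overlap and did not pass (log2 fold change -0.16, limma adjusted p = 0.059, and 0.0423 without wildtype replicate 1, over a range of 0.0297 to 0.676), with -0.03 once the chromosome's median was taken off. The BMP Smads Smad1 and Smad5 differed by 0.14 (-0.004 to 0.28, limma adjusted p = 0.228, and 0.047 without wildtype replicate 2, over a range of 0.047 to 0.514) and -0.01 (-0.20 to 0.19).

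Of the inhibitors that act at the membrane or in the cell, 3 of 7 rose and none fell. That is 42.9%, beside 12.1% of all genes and 23.9% of genes above the background range. Pmepa1, a TGF-beta target whose membrane protein sequesters receptor Smads, had 9.50, 9.37 and 9.40 in knockout against 8.86, 8.71 and 8.76 in wildtype. The rise of 1.57-fold was without overlap (log2 fold change 0.65, SE 0.06, limma adjusted p = 0.00121). The corepressor gene Tgif1 rose by 0.28 (SE 0.06, limma adjusted p = 0.0306) and the BMP-induced inhibitory Smad gene Smad6, whose window above holds the palindromic element, by 0.18 (SE 0.04, adjusted p = 0.0386). Tgif1 lost its call without any 1 knockout replicate and without wildtype replicate 1 or 3 (adjusted p from 0.0644 to 0.131). Smad6 lost its call without any 1 knockout replicate and without wildtype replicate 2 or 3 (adjusted p from 0.0537 to 0.161). Smad7, the feedback inhibitor of both arms, differed by -0.04 (95% confidence interval -0.18 to 0.10), and the corepressor genes Ski and Skil by 0.09 (-0.03 to 0.21) and 0.04 (-0.19 to 0.27). The pseudoreceptor gene Bambi differed by 0.02 within the background range.

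The Id genes, which encode dominant-negative helix-loop-helix proteins and are early BMP targets, moved in opposite directions. Id3 had 8.47, 8.47 and 8.69 in knockout against 7.99, 7.88 and 7.81 in wildtype and rose 1.57-fold (log2 fold change 0.65, SE 0.08, limma adjusted p = 0.00342). Id1 averaged 9.82 ± 0.07 in knockout and 9.46 ± 0.06 in wildtype (SD, n = 3 each) and rose by 0.35 (SE 0.06, limma adjusted p = 0.00877). Id2 had 9.89, 9.91 and 9.96 in knockout against 10.62, 10.61 and 10.80 in wildtype and fell to 0.592 times the wildtype level (log2 fold change -0.76, SE 0.06, limma adjusted p = 0.000791). In each of these 3 genes the groups did not overlap, with knockout above for Id1 and Id3 and below for Id2. Id4 did not overlap either and did not pass (0.29, 95% confidence interval 0.06 to 0.51, limma adjusted p = 0.118), with wildtype inside the background range.

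Set side by side, the TGF-beta and activin arm had 10 of 20 genes past the test and the BMP arm 8 of 18. The share was 12.1% over all genes and 23.9% over genes above the background range. Medians were 0.11 and 0.10 over all members of the arms. Ligand genes passed in 4 of 5 cases against 1 of 4, and the antagonist genes with the largest changes were Fst, which fell, in the first and Grem1, which rose, in the second. Both means lay within the background range for 2 of the 4 BMP ligands, Bmp2 and Bmp7, and for 0 of the 5 others. Of those 5, Tgfb3 had its wildtype mean in that range. No difference between the arms was tested.

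Other genes of both pathways, from lists chosen for their roles, passed for 15 of 83 measured, 9 rising and 6 falling, which is 18.1% beside 12.1% of all genes. Over genes whose mean lay above the background range the share was 23.9%. Both means lay within that range for 41 of the 83 genes and for 18387 of all 30063. These lists too were chosen with earlier results of these data known. Of 21 other ligand genes, Gdf11, a ligand that signals through Smad2 and Smad3, rose by 0.47 (SE 0.09, limma adjusted p = 0.0226) and 17 had both means within the background range. The Gdf11 call was lost without any 1 knockout replicate and without wildtype replicate 1 or 3 (adjusted p from 0.0645 to 0.0947). Of 10 other receptors and co-receptors, the BMP co-receptor gene Rgma fell by 0.33 (SE 0.05, limma adjusted p = 0.0078). Of 12 other antagonists, Bmper, which encodes a BMP-binding secreted protein, rose by 0.49 (SE 0.06, limma adjusted p = 0.00329) from a background-range wildtype mean. Of 14 other regulators in the cell, Dab2, encoding an adaptor that links TGF-beta receptors to Smads, rose by 0.73 (SE 0.05, adjusted p = 0.00037) and Smad9 by 0.63 (SE 0.07, adjusted p = 0.00301). These 2 genes act in different arms, and the wildtype mean of Smad9 lay within the background range.

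Outside the 44 genes, 9 TGF-beta targets were measured, of which 3 rose and 2 fell, at a median of 0.09. That is 55.6% of a list chosen with earlier results known, beside 12.1% of all genes and 23.9% of genes above the background range. The collagen gene Col1a1 rose by 3.03, the matrix protein gene Tgfbi by 1.51 (from a wildtype mean within the background range) and the matricellular gene Ccn2 by 1.31, while the fibronectin gene Fn1 fell by 0.57 and Klf10, an early TGF-beta response gene, fell by 0.50 (limma adjusted p from 1.08e-05 for Col1a1 to 0.002645 for Klf10). The transition factor genes Snai1 (0.09) and Snai2 (-0.08), also named among TGF-beta targets, did not pass. Of 6 further BMP targets, Hey1 rose by 0.76 (SE 0.06, limma adjusted p = 0.000671) with both means within the background range, as were both means of 5 of the 6, and Atoh8 (0.18) did not pass.

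**Figure D4:**
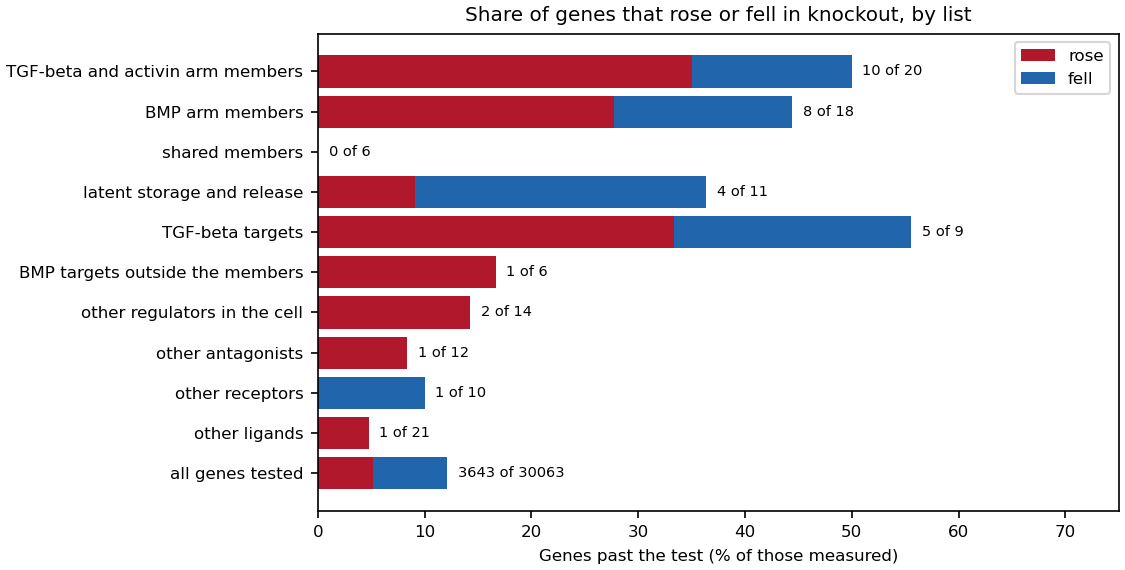
Share of measured genes (x axis, in %) that rose (red) or fell (blue) in knockout in each list, with the number past the test of those measured beside each bar; the bottom bar is all 30063 genes tested. Both signalling arms, at 10 of 20 and 8 of 18, lie above the bar of all genes, and the other ligands, at 1 of 21, lie below it.

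Some markers of other cell types also differed between the lines, while most of those measured did not pass. Summed linear intensity of 6 fibroblast markers was 5066 to 5502 in knockout and 909 to 1003 in wildtype, through Dcn (4.33, from a wildtype mean within the background range) and Col1a1 (3.03), while Col1a2, Col3a1, Lum and Thy1 did not pass and lay within that range in both lines. For 6 mesangial or pericyte markers it was 1480 to 1653 in knockout and 753 to 840 in wildtype, through Pdgfrb (2.36, also from a wildtype mean within that range), with the other 5 within the background range in both lines, Mcam among them having fallen (-0.22), a call lost without any 1 knockout replicate or without wildtype replicate 3 (adjusted p from 0.0519 to 0.0865). Of 8 tubule markers 3 fell (log2 fold changes of -3.50 for Aqp1, -1.50 for Cdh16 and -0.36 for Lrp2), the sums being 4967 to 5182 in knockout and 14277 to 15350 in wildtype. The other 5 did not pass, and Slc34a1, Umod, Slc12a1 and Cdh1 among them lay within the background range in both lines. Of 5 parietal epithelial markers 2 fell (-0.87 for Cldn1 and -0.73 for Pax8), at sums of 4141 to 4567 in knockout and 5731 to 6205 in wildtype. Pax2 (0.17) did not pass, and Krt8 and Krt18 lay within the background range in both lines. Of 6 macrophage markers, Cd68 rose (0.57, a call lost without 5 of the 6 arrays in turn, at adjusted p from 0.0507 to 0.171) and Csf1r fell (-1.21), at sums of 921 to 1093 in knockout and 1247 to 1364 in wildtype, and all 7 endothelial markers lay within the background range. The part of cell makeup in the changes of the signalling genes was not tested.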

How the data were processed

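Gene expression was measured by Affymetrix array in 3 knockout and 3 wildtype samples. The authors deposited log2 intensities per probe set, for which the submitters' processing notes name affy 1.44.0 and RMA. RMA corrects background, normalizes between arrays and merges the probes of each set, so weak signals are pulled toward a common floor and arrays can share a fitted value. No scanner files or detection calls were used. The number of arrays limits the precision, and p-values measure the spread between replicates of a line.

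Of 72688 probe sets, 30604 carried 1 gene symbol and 2146 carried several and were not used by name. Symbols were updated through the reference table (GRCm38.p6), and the brightest probe set per gene was kept, leaving 30063 genes, of which 30061 are in that table. The comparison of knockout with wildtype used limma 3.58.1 under R 4.3.3 (lmFit, eBayes, no covariate, no filter), with Benjamini-Hochberg adjustment at 0.05 over all genes. Errors are SDs over arrays and limma standard errors. Data for 30063 genes were simulated at the spread of these arrays. In them 67 genes were raised by 0.5, 67 by 1 and 66 by 2 on the log2 scale. Recovery was 46.3%, 83.6% and 100%, with 5 false calls. Far fewer genes changed there than the 3643 called here, which alters the adjusted threshold, so these rates do not give the recovery in the real comparison.

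The signalling genes and all gene lists were chosen with earlier results of these data known. Genes were given by array if they passed with a log2 fold change of 0.5 or more in size. Of each other pathway list up to 4 with the largest change that passed were named; Klf10, the markers of other cell types and genes named as not passing were added after their values were seen. Listed genes without a probe set of a single symbol were not analysed here. Alternatives were the replicate number as a block, leaving out each array, renormalization, a filter on dim genes, another variance prior, averaging of probe sets and leaving out genes with identical values in a group. Plots used matplotlib 3.10.9 (Python 3.11.15).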

Additional observations from a re-analysis of the deposited data

How the results depend on the processing

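No signalling gene, and no other named gene that passed, reversed a called direction under those of the 14 alternatives that gave it a value (Tll1 had none with dim genes left out). Of the 18 signalling genes that passed, 13 passed under all of them, and Tgfb3, Acvr1, Nog, Smad6 and Tgif1 did not. Leaving out 1 array gave 14 to 17 signalling genes, 8 to 10 of the TGF-beta and activin arm, 5 to 7 of the BMP arm (5 without wildtype replicate 3), 12 to 14 other pathway genes and 2065 to 3363 of all genes, against 3643 with all arrays. The count of all genes was 2230 when knockout replicate 1 was left out, 2299 for knockout replicate 2 and 2065 for wildtype replicate 3. These fits use fewer arrays. With chromosome medians taken off, added after seeing the data, 17 signalling genes passed, and the split over all genes was 2399 higher and 1779 lower, against 1540 and 2103. The replicate block gave 16 signalling genes and 3734 of all genes, and ended the calls of Smad6, Tgif1, Tll1 and Mcam. Centring arrays on the median ended those of Acvr1, Smad6, Tgif1, Gdf11, Tll1 and Cd68, chromosome medians those of Nog and Smad6, and quantile normalization or leaving out identical genes that of Smad6. The cause was not tested. Same-numbered arrays had correlations of deviations of 0.34, 0.27 and 0.04, and differently numbered arrays -0.34 to 0.05. Knockout replicate 3 correlated best with wildtype replicate 2 (0.05). The labels state no pairing and these values do not settle it, so the numbers entered only as the replicate block above. Other background corrections and slide as a block were not run, since no scanner files were used. Bmpr1b was 1 of the 44 genes with identical values in a group, and it was not called.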
